A study of Drosophila melanogaster with 12 samples.

Results

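The genes described here are the Drosophila DNA replication genes, from origin recognition to the supply of deoxynucleotides, in S2 cells treated with the porphyrin TMPyP4. The set holds 36 genes, picked by function and matched by gene symbol, with earlier results of these data known. A row was found for 34 of the 36 among 17494 gene rows, and all 34 passed the filter on low counts that left 7328 genes. Orc1, the largest subunit of the origin recognition complex, and RPA2, a subunit of the single-strand binding protein RPA, were matched to no row under their current identifiers and were not analysed here. CDC45L was matched as Cdc45 and RpA-70 as RPA1.

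S2 is a Drosophila melanogaster line with hemocyte-like properties that was derived from embryos. Cells were kept with TMPyP4 at 25, 50 or 100 µmol/L, or with DMSO as the control, and all were sampled after 48 h. TMPyP4, a cationic porphyrin, is a ligand of G-quadruplexes, which form in nucleic acid rich in guanine. Each of the 4 groups had 3 libraries of polyadenylated RNA. The labels give the DMSO group the value 100 µg/L without saying what it refers to, and they describe the RNA of these libraries as a mixed preparation with zebrafish RNA. Nothing says that the replicates were separate cultures, so p-values measure only the spread between these libraries, which may be technical.

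Replication starts where the origin recognition complex, with Cdc6 and Cdt1 (Dup in Drosophila), loads the ring-shaped MCM2-7 helicase onto DNA. Cdc45 and the GINS complex then activate the helicase, polymerase alpha-primase lays down primers, and polymerases delta and epsilon extend them on the PCNA clamp that replication factor C loads. In dividing fly cells many of these genes are transcribed under E2F and Dref control around S phase, and S2 cells proliferate continuously in culture.

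Gene counts ran from 4669194 to 9662038 per library, and the lowest total was in the 50 µmol/L group. Replicates of a group differed by more than sampling noise, with a chi-square of 4.06 to 24.6 per gene over 12 pairs, and none was counted as a duplicate. Of 8 hemocyte markers 4 reached 5 CPM (counts scaled to a common library total with TMM factors, the unit of all levels below), among them srp, a GATA factor gene, and Hml, whereas NimC1 had at most 3 counts in every library. Summed over the 8 markers, the level was 647 to 763 CPM in DMSO and 362 to 550 CPM over the 9 treated libraries. The summed level of the 34 replication genes, 4595 to 4993 CPM in DMSO and 4336 to 5526 CPM in treated libraries, overlapped between DMSO and treatment, and the part of the hemocyte markers in the values below was not tested. Hml was the largest part of that sum, with a mean of 446 CPM in DMSO and 237, 271 and 216 CPM at 25, 50 and 100 µmol/L. The scavenger receptor gene crq had means of 86.8 CPM in DMSO and 93.9, 79.3 and 86.0 CPM, with no call in edgeR, so the markers did not move as one. Hml has 11756 exonic bases and crq 2848, and over all genes tested longer genes were lower against DMSO. The part of length in the marker values was not tested. Of 4 germline markers 1, bam, reached 5 CPM, and 2 of 3 ovarian somatic markers did. The 3 fat body markers had at most 3 counts in every library.

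The replication genes were well expressed in all 4 groups. Per kilobase of exon, 28 of the 34 were above the median of 7263 ranked genes, which was 17.2 CPM per kb, and 5 (RnrS, PCNA, geminin, RfC4 and RnrL) were above the 90th percentile. Their median percentile was 75.4. The level spanned a 97.2-fold range, from 4.64 CPM per kb for Psf3, a GINS subunit, to 452 CPM per kb for RnrS, the small subunit of ribonucleotide reductase, as means over the 12 libraries. Counts of a member in a library ran from 47 to 7330, which limits the precision for Psf3 and Prim1 more than for RnrS.

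Levels differed between genes with related roles in replication, whether or not their products form 1 complex. Among the licensing factors in DMSO, geminin, the inhibitor of Dup, stood at 269 ± 25.5 CPM per kb (SD, n = 3), against 11.8 ± 1.91 CPM per kb (SD, n = 3) for Cdc6. That 22.8-fold ratio between means was 25.5-fold at 25, 23.4-fold at 50 and 24.8-fold at 100 µmol/L. The 6 MCM2-7 subunits, which form a ring of 1 copy each, lay within 1.81-fold of each other in DMSO, with Mcm6 highest and Mcm3 lowest, and within 1.60 to 1.71-fold with TMPyP4. In the clamp and loader group PCNA was highest at 289 ± 18.6 CPM per kb (SD, n = 3) in DMSO, 9.30 times the level of RfC3, a subunit of the loader. RnrS exceeded RnrL, the large subunit of ribonucleotide reductase, in each library, by 2.49 to 3.63-fold per kb.

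**Figure D1:**
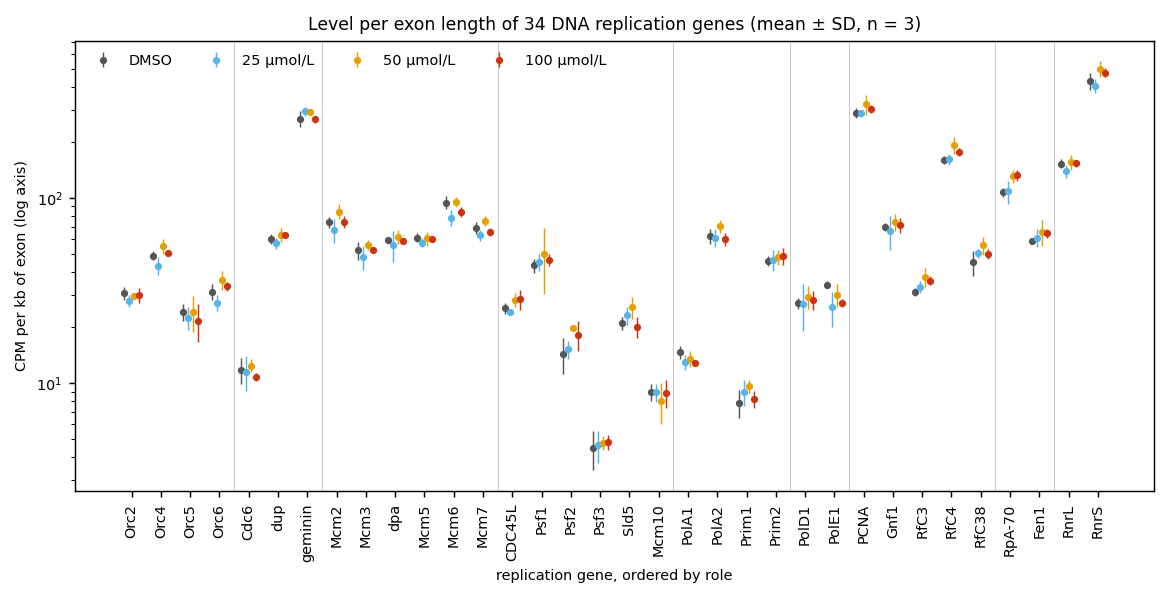
Level of each of the 34 replication genes in CPM per kilobase of exon (log axis), as mean ± SD of 3 libraries for DMSO (grey) and for 25 (blue), 50 (orange) and 100 µmol/L TMPyP4 (red). Grey lines part the roles; RnrS is highest and Psf3 lowest, and the 4 groups of a gene lie close to each other against the 97.2-fold range between genes.

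The first question was whether TMPyP4 changed the level of these genes against DMSO. None passed the threshold of an adjusted p of 0.05 in the edgeR quasi-likelihood test at any concentration. At 25 µmol/L 0 of 34 passed, against 1.66% of all genes tested, at 50 µmol/L 0 of 34 against 6.85%, and at 100 µmol/L 0 of 34 against 5.17%. At an unadjusted p under 0.05 the counts were 2, 4 and 2 of 34, against 15.6, 26.2 and 21.8% of all genes, and DESeq2 also called 0 at each concentration. The smallest adjusted p in any of the 8 tests made was 0.111, for RfC4 at 50 µmol/L.

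The changes were small as estimated. Fold changes ran from 0.756 to 1.14 at 25, from 0.883 to 1.39 at 50 and from 0.794 to 1.28 at 100 µmol/L. The 95% interval of every member lay within a 2-fold change in each of these 3 comparisons, and within a 1.5-fold change for 32, 29 and 31 of the 34. The widest bounds were a log2 fold change of -0.68 for PolE1 at 25 and of 0.92 for Psf2 at 50 µmol/L. These intervals bound the differences and do not show that the levels were equal. Because RNA was measured in bulk, fewer cells in S phase and less RNA of these genes per cell cannot be told apart.

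**Figure D2:**
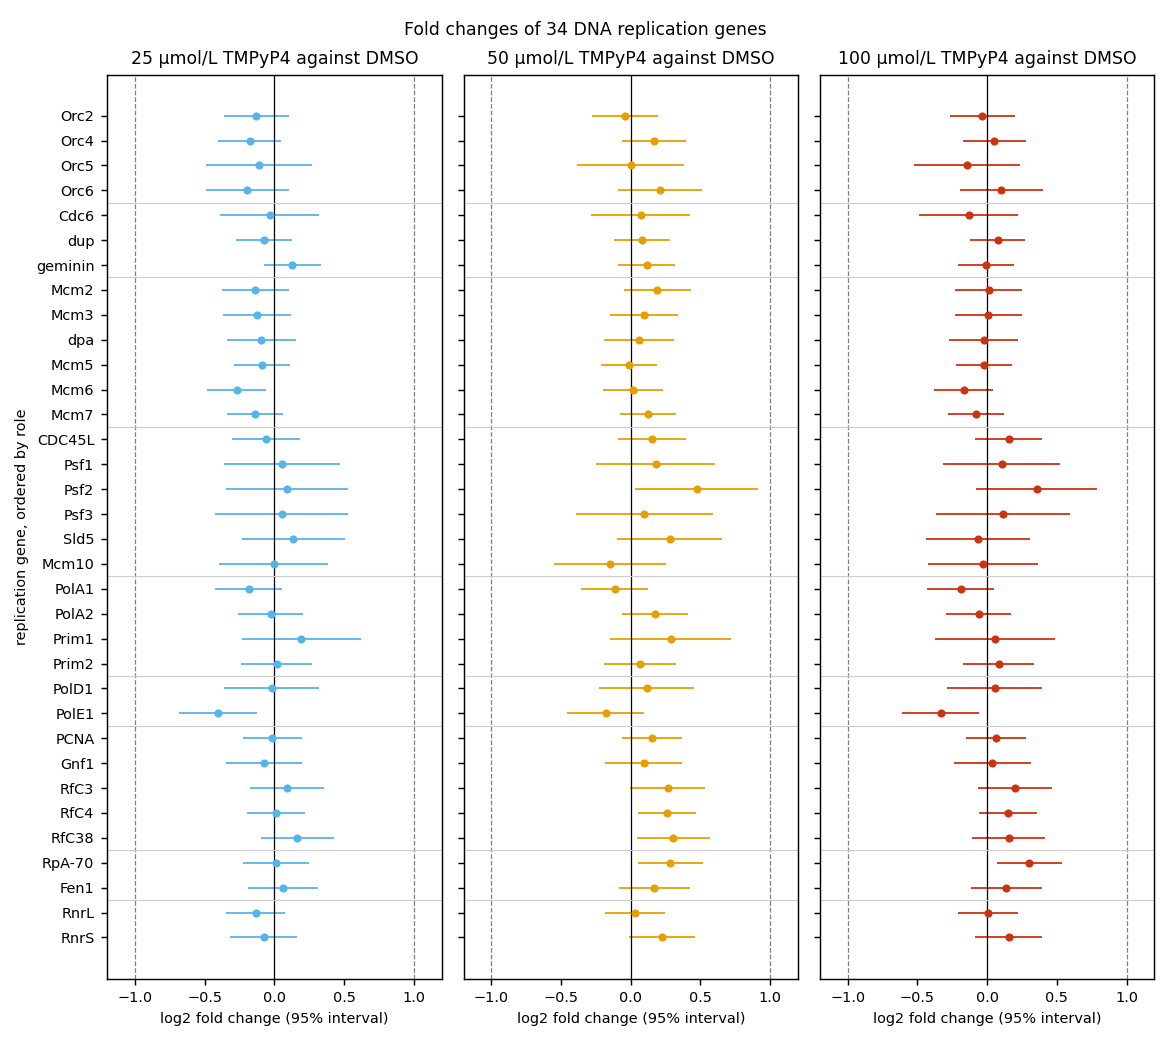
Log2 fold change against DMSO (point) with its 95% interval (line) for 34 replication genes ordered by role, at 25, 50 and 100 µmol/L TMPyP4. Dashed lines mark a 2-fold change in either direction; each interval stays inside them.

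The set as a whole was lowest at 25 and highest at 50 µmol/L. The median log2 fold change of the 34 was -0.05 at 25, 0.12 at 50 and 0.05 at 100 µmol/L, beside 0.01, 0.02 and 0.01 over all genes tested. Above 0 were 12, 28 and 21 of the 34, against 52.5, 52.6 and 52.2% of all genes. The 3 comparisons use the same DMSO libraries. The group mean was lowest at 25 µmol/L for 17 of the 34 genes and highest at 50 µmol/L for 23.

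The libraries of a group did not move as one. Summed over the 34 genes, the 25 µmol/L libraries stood at 5023, 4336 and 4341 CPM and the 50 µmol/L libraries at 5025, 5149 and 5526 CPM. The 100 µmol/L libraries stood at 4772, 4994 and 5024 CPM. Replicate 1 at 25 µmol/L was thus at the level of replicate 1 at 50 µmol/L, while its 2 fellow libraries were the lowest of the 12. Replicates 2 and 3 at 25 µmol/L held the lowest value of the 12 libraries for 9 and 12 of the genes, and replicates 2 and 3 at 50 µmol/L the highest for 8 and 14. Without replicate 1 the median at 25 µmol/L was -0.12, 7 members had an unadjusted p under 0.05, against 17.7% of all genes in that fit, and 1 passed the threshold, against 2.69%.

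**Figure D3:**
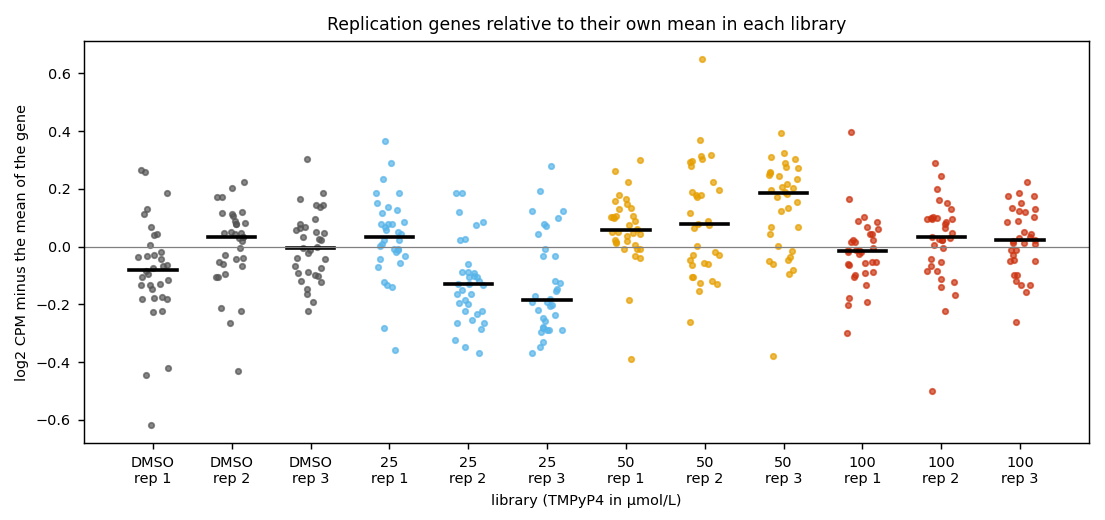
For each of the 12 libraries, the log2 CPM of each of the 34 replication genes minus the mean of that gene over all libraries (points) and the median over genes (bar). The median was lowest in replicates 2 and 3 at 25 µmol/L, at -0.13 and -0.19, and highest in replicate 3 at 50 µmol/L, at 0.19.

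Set directly against 25 µmol/L, the 50 µmol/L libraries had higher levels for 32 of the 34 genes, against 48.7% of all genes above 0. The exceptions were geminin and Mcm10, a helicase cofactor, with log2 fold changes of -0.01 and -0.14. The median was 0.16, beside -0.01 over all genes. The groups did not overlap, with 50 µmol/L higher, for 7 of the 34, against 5.65% of all genes, and these were Orc4, Orc6, Mcm6, Mcm7, CDC45L, Psf2 and RnrS. For 0 of 34 was 50 µmol/L lower in this way, against 6.77%. In edgeR 0 of 34 passed the threshold, against 0.3% of all genes, with the smallest adjusted p, 0.375, for Orc4. At an unadjusted p under 0.05 there were 8 of 34 against 10.9%, and DESeq2 called 0. Over 15 alternative settings the median stayed between 0.13 and 0.26 and 29 to 33 genes were above 0. Members share libraries and are not independent replicates, so this count carries no p-value.

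Between 100 and 25 µmol/L 0 of 34 passed in edgeR, against 0.205% of all genes, with 2 at an unadjusted p under 0.05 against 5.91%. The groups did not overlap, with 100 µmol/L higher, for Orc6, dup, CDC45L and RnrS, 4 of 34 against 6.15% of all genes, and for 0 with 100 µmol/L lower, against 6.44%. Above 0 were 25 of 34 against 47.7%. Between 100 and 50 µmol/L 0 passed, against 0.0409%, with 0 at an unadjusted p under 0.05, against 6.5% of all genes. Above 0 were 6 of 34 against 50.5%. Geminin, Mcm6 and Mcm7, 3 of 34, were lower at 100 µmol/L without overlap, against 5.95% of all genes, and 0 were higher, against 6.18%. The linear trend over concentration called 0 of 34 against 0.628% of all genes, with 1, RpA-70, at an unadjusted p under 0.05 against 17.2%. Tested jointly over all 4 groups, the fit called 0 against 4.26%, with 4 at an unadjusted p under 0.05 against 21%. DESeq2 called 0 in each of these 4 tests.

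By role, the origin recognition and MCM2-7 genes were the ones with each fold change below 0 at 25 µmol/L, together with both polymerases and both reductase subunits. Over the 4 origin recognition genes measured, the median was -0.15 at 25, 0.08 at 50 and 0.01 at 100 µmol/L (log2 fold change). Orc4, an ATPase subunit of the complex, had the smallest joint p of this role. Its level was 75.9, 83.9 and 77.1 CPM in DMSO, 78.8, 65.0 and 65.4 CPM at 25, 81.9, 86.0 and 97.9 CPM at 50, and 78.3, 82.9 and 84.3 CPM at 100 µmol/L. Replicates 2 and 3 at 25 µmol/L were lowest, and each 50 µmol/L library was above each 25 µmol/L library. The log2 fold change between those groups was 0.34 ± 0.11 (SE; edgeR adjusted p 0.375). Exons of Orc4 overlap an antisense RNA gene, and whether counting used the strand is not stated, so reads of both cannot be told apart.

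Licensing factors followed. Geminin, the inhibitor of Dup, was at 283, 313 and 259 CPM in DMSO, 290, 322 and 323 CPM at 25, 318, 297 and 311 CPM at 50, and 270, 286 and 294 CPM at 100 µmol/L. Treated and DMSO libraries overlapped at each concentration, and the log2 fold changes were 0.13, 0.12 and -0.01, each with an SE of 0.096. The edgeR adjusted p was 0.567 at 25, 0.463 at 50 and 0.971 at 100 µmol/L. Dup, the Cdt1 homologue that loads MCM2-7, and Cdc6 had log2 fold changes between -0.13 and 0.08 over the 3 concentrations.

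All 6 MCM2-7 genes had fold changes below 0 at 25 µmol/L, with a median log2 of -0.13, and 5 of 6 were above 0 at 50 µmol/L, with a median of 0.08. Mcm6 lies on chromosome X at 6674387 to 6677176 (BDGP6, the dm6 assembly) and was at 240, 281 and 270 CPM in DMSO and 243, 208 and 205 CPM at 25 µmol/L. It was at 258, 258 and 284 CPM at 50 and 230, 224 and 250 CPM at 100 µmol/L. The 25 µmol/L library of replicate 1 overlapped DMSO, and its fellow libraries lay below all DMSO libraries. The log2 fold change at 25 µmol/L was -0.27 ± 0.10 (SE; edgeR adjusted p 0.192).

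The helicase activation genes held the largest fold change of the set. Psf2, a GINS subunit on chromosome 2L at 4386182 to 4387356, was at 9.43, 14.7 and 13.3 CPM in DMSO and 13.2, 14.7 and 11.8 CPM at 25 µmol/L. It was at 16.9, 18.0 and 17.01 CPM at 50 and 19.1, 13.1 and 15.4 CPM at 100 µmol/L. Each 50 µmol/L library was above each DMSO library. The log2 fold change there was 0.47 ± 0.21 (SE; edgeR adjusted p 0.162), and Psf2 is a low gene with 65 to 147 counts per library. The other GINS genes Psf1, Psf3 and Sld5 had positive fold changes at 25 and 50 µmol/L, none past the threshold.

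Polymerase alpha-primase genes split. PolA2, the regulatory subunit, was at 128, 141 and 116 CPM in DMSO, 142, 119 and 118 CPM at 25, 132, 147 and 156 CPM at 50, and 114, 134 and 122 CPM at 100 µmol/L. Groups overlapped, with log2 fold changes of -0.03, 0.17 and -0.06 and SEs of 0.11. PolA1, the catalytic subunit, was lower than DMSO in each 100 µmol/L library, with a log2 fold change of -0.19 ± 0.11 (SE) and an edgeR adjusted p of 0.350.

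PolE1, the catalytic subunit of the leading-strand polymerase epsilon, had the largest decrease as estimated. It lies on chromosome 3R at 23348128 to 23355163 and was at 225, 231 and 244 CPM in DMSO. It was at 220, 155 and 153 CPM at 25, 205, 178 and 234 CPM at 50, and 185, 176 and 194 CPM at 100 µmol/L. All 25 and all 100 µmol/L libraries were below all DMSO libraries, and at 25 µmol/L PolE1 was the 1 member of 34 whose groups did not overlap, against 8.62% of all genes that were lower in this way and 10.8% that were higher. The log2 fold changes were -0.40 ± 0.13, -0.18 ± 0.13 and -0.33 ± 0.13 (SE) at 25, 50 and 100 µmol/L, with edgeR adjusted p of 0.134, 0.399 and 0.148. It passed the threshold without replicate 1 at 25 µmol/L, with a log2 fold change of -0.60 and an adjusted p of 0.0145 (edgeR). It also passed with no filter on counts at 25 µmol/L, with an adjusted p of 0.0128, and from the 100 µmol/L and DMSO libraries alone, with an adjusted p of 0.0371. Those fits called 4.05 and 7.24% of all genes.

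With 6849 exonic bases PolE1 is the longest member, at the 93.4th percentile of length, and fold changes against DMSO were lower for longer genes over the whole table. With an offset for exonic length its log2 fold changes were -0.13, 0.25 and -0.00, none past the threshold. Per kb, the ratio of PolE1 to PolD1, the catalytic subunit of polymerase delta with 3440 exonic bases, was 1.23 to 1.29 in DMSO libraries and 0.854 to 1.11 in the 9 treated ones. That ratio was chosen after values were seen and was not tested, and the part of length in it was not tested.

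Clamp loader and clamp genes were all above 0 at 50 and at 100 µmol/L, 5 of 5, with median log2 fold changes of 0.26 and 0.15. PCNA, RfC3, RfC4 and RfC38 have 1070 to 1604 exonic bases, fewer than the 2084 of the median tested gene, and Gnf1 has 3274. Tested genes up to that median length had medians of 0.16 and 0.11 in these comparisons. The part of length in the rise of these 5 genes was not tested beyond the length offset. RfC4, a small subunit of replication factor C, lies on chromosome 3L at 4134860 to 4136038. Its level was 171, 188 and 182 CPM in DMSO, 197, 178 and 173 CPM at 25, 193, 238 and 219 CPM at 50, and 193, 198 and 211 CPM at 100 µmol/L. Each 50 and each 100 µmol/L library was above each DMSO library, by margins that were small for replicate 1. The log2 fold change at 50 µmol/L was 0.26 ± 0.10 (SE; edgeR adjusted p 0.111). Without replicate 1 at 50 µmol/L it was 0.34 with an adjusted p of 0.0368, and RfC38, another loader subunit, then passed as well with 0.40 and 0.0479. In that fit 2 of 34 members passed, against 16.6% of all genes. Over 15 alternatives RfC4 ran from 0.016 to 0.34 at 50 and from -0.036 to 0.18 at 100 µmol/L. Leaving out 1 library gave no value below 0.18 at 50 µmol/L, so the lowest value there came from another setting. At 100 µmol/L the lowest value, -0.036, came from a fit with the length offset. At 25 µmol/L RfC4 ran from -0.17 to 0.053, and the lowest value again came from a fit with that offset. PCNA, the clamp itself, had a log2 fold change of 0.15 ± 0.10 (SE) at 50 µmol/L, with an adjusted p of 0.361.

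RpA-70, the large subunit of RPA, had the smallest joint p of all members, an unadjusted 0.0174 in edgeR with an adjusted p of 0.147. It was at 218, 243 and 230 CPM in DMSO, 270, 218 and 208 CPM at 25, 253, 297 and 291 CPM at 50, and 262, 292 and 297 CPM at 100 µmol/L. All 50 and 100 µmol/L libraries were above all DMSO libraries, whereas the 25 µmol/L libraries spanned the DMSO range. The log2 fold changes were 0.01 ± 0.11, 0.28 ± 0.11 and 0.30 ± 0.11 (SE), with edgeR adjusted p of 0.976, 0.120 and 0.119. Without replicate 1 at 25 µmol/L its joint test passed, with an adjusted p of 0.0335, in a fit that called 7.62% of all genes.

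RpA-70 lies on the minus strand of chromosome 3R at 8262120 to 8264451, and Mcm2 on the plus strand at 8264970 to 8267924, so that their starts face away from each other across 518 bases. Mcm2 was at 197, 221 and 225 CPM in DMSO and 201, 216 and 232 CPM at 100 µmol/L, with a log2 fold change of 0.01 ± 0.11 (SE). It was at 228, 180 and 177 CPM at 25 and 223, 243 and 268 CPM at 50 µmol/L. Between 50 and 25 µmol/L both genes were higher at 50. The log2 fold changes were 0.33 ± 0.11 for Mcm2 and 0.27 ± 0.11 for RpA-70 (SE), with edgeR adjusted p of 0.421 and 0.431. Per kb, RpA-70 stood at 1.39 to 1.498 times Mcm2 in DMSO, 1.60 to 1.65 times at 25, 1.47 to 1.66 times at 50 and 1.74 to 1.84 times at 100 µmol/L. The DMSO ratios overlapped those at 50 µmol/L and did not overlap those at 25 or at 100 µmol/L. This pair was chosen after values were seen, and the ratio was not tested.

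RnrS was at 613, 755 and 673 CPM in DMSO, 709, 596 and 631 CPM at 25, 710, 808 and 866 CPM at 50, and 712, 766 and 793 CPM at 100 µmol/L. Each 50 and 100 µmol/L library was above each 25 µmol/L library, narrowly for replicate 1 of each group, and DMSO overlapped all of them. The log2 fold change of 50 against 25 µmol/L was 0.30 ± 0.11 (SE; edgeR adjusted p 0.431). RnrL, its partner subunit, had log2 fold changes between -0.13 and 0.03 against DMSO.

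**Figure D4:**
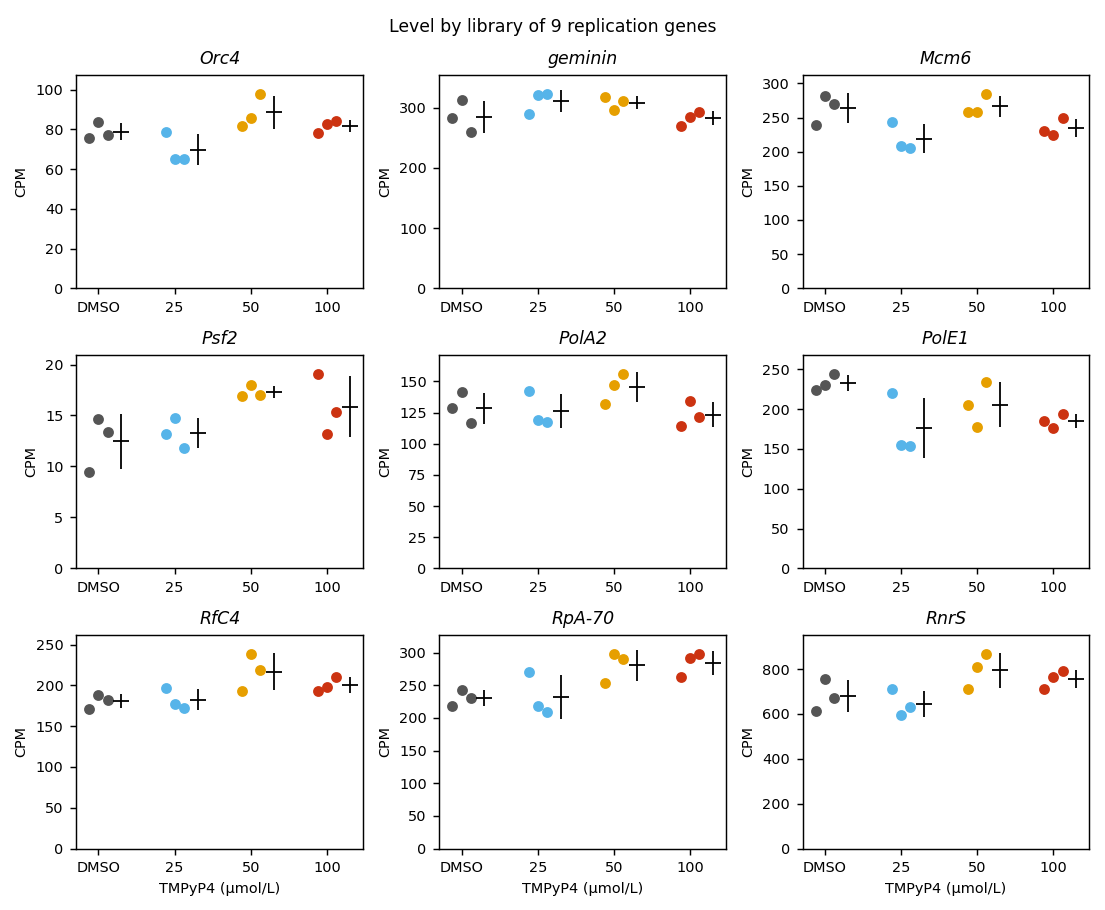
CPM in each library (points) and mean ± SD of 3 libraries (bar) for the gene with the smallest joint p in each of 9 roles, in DMSO and at 25, 50 and 100 µmol/L TMPyP4; axes start at 0. PolE1 is below DMSO at 25 and 100 µmol/L, RpA-70 and RfC4 are above DMSO at 50 and 100 µmol/L, and none passed the threshold.

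Groups did not overlap with DMSO for 5 of 34 members at 50 µmol/L, all higher, against 12.8% of all genes: Psf2, Prim1, RfC3, RfC4 and RpA-70. None was lower in this way, against 13%. At 100 µmol/L 4 of 34 (RfC3, RfC4, RpA-70 and Fen1) were higher, against 13.7%, and 2 of 34, PolA1 and PolE1, lower, against 13.4%. As shares of 34, these were near the background or below it.

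Length was set beside these values because fold changes against DMSO differed with it across all genes. The slope of log2 level on log2 exonic length was taken for each library. It ran from 0.054 to 0.264 in DMSO and from -0.031 to -0.0002 at 25 µmol/L. At 50 µmol/L the slope ran from -0.222 to 0.021 and at 100 µmol/L from -0.109 to 0.029. Treated libraries were all below DMSO, and libraries of the same group differed as well. Tested genes had a median of 2084 exonic bases and members one of 2100.5. At 50 µmol/L the median log2 fold change was 0.16 for the 3632 tested genes up to that length and -0.20 for the 3631 longer ones. The 17 shorter members had 0.18 and the 17 longer members 0.08, with 13 of the 17 longer members above 0 against 992 of the 3631. At 25 µmol/L shorter and longer members had 0.02 and -0.09, and at 100 µmol/L 0.08 and 0.00. Lengths were not matched within either class. Its part in the members' values was not tested beyond the length offset, under which 0 members passed.

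**Figure D5:**
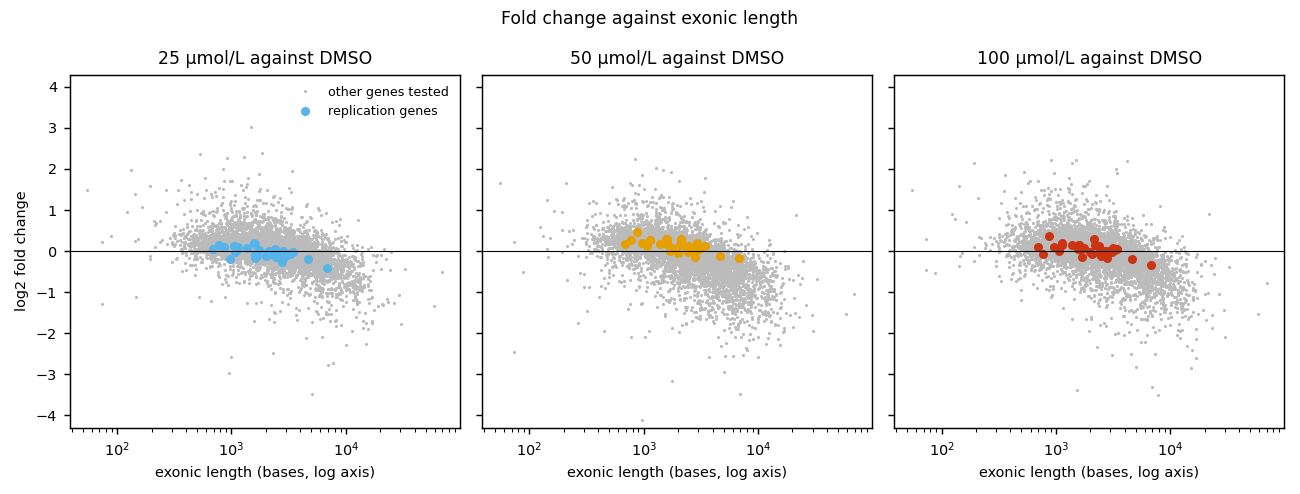
Log2 fold change against exonic length (log axis) for 7263 tested genes (grey) and the 34 replication genes (coloured) at 25, 50 and 100 µmol/L TMPyP4 against DMSO. Long genes lie lower in all 3 panels; members span 692 to 6849 bases, and PolE1 is the one at the right end.

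Other replication factors gave a few calls. Of a list of 29 further factors, such as polymerase accessory subunits, 27 had a row and 26 were tested. At 25 µmol/L 0 of the 26 passed in edgeR, at 50 µmol/L 2 fell, and at 100 µmol/L 1 fell, beside 1.66, 6.85 and 5.17% of all genes called in either direction. Their median log2 fold changes were -0.05, 0.04 and -0.06. Orc3, listed under its older name lat, was at 0 counts in each library. It shares its span, strand and exonic length of 3315 bases with CG34315, which was also at 0 in each library, and how the counting treated reads of both was not tested.

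Caf1-180, the large subunit of chromatin assembly factor 1, was at 82.2, 52.7 and 55.7 CPM in DMSO, 39.5, 44.2 and 49.7 CPM at 25, 40.2, 30.5 and 29.3 CPM at 50, and 50.2, 37.0 and 28.9 CPM at 100 µmol/L. All treated libraries were below all DMSO libraries. It fell by 0.93 ± 0.21 (SE) on the log2 scale at 50 and by 0.72 ± 0.20 (SE) at 100 µmol/L, with edgeR adjusted p of 0.0167 and 0.0474. Leaving out DMSO replicate 1 gave -0.70 and 0.0971 at 50 µmol/L, and the adjusted p there was 0.0918 and 0.0894 without 50 µmol/L replicate 2 or 3. At 100 µmol/L the adjusted p was 0.225 and 0.0659 without DMSO replicate 1 or 3, and 0.149 and 0.229 without 100 µmol/L replicate 2 or 3. With the length offset the adjusted p was 0.0532 at 50 and 0.0757 at 100 µmol/L.

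Chif, the Drosophila partner of the Cdc7 kinase that fires origins, was at 36.3, 16.6 and 21.1 CPM in DMSO and 15.8, 8.77 and 6.22 CPM at 50 µmol/L. The groups did not overlap, and DMSO replicate 1 was far above its fellow libraries. It fell by 1.25 ± 0.31 (SE) on the log2 scale with an edgeR adjusted p of 0.0271. Without DMSO replicate 1 the log2 fold change was -0.86 with 0.160, and without 50 µmol/L replicate 2 or 3 the adjusted p was 0.129 and 0.132, and from the 50 µmol/L and DMSO libraries alone 0.0680. With 7747 exonic bases it is a long gene, and with the length offset the adjusted p was 0.119. Exons of chif overlap Hyls1 on the same strand, and how the counting treated reads of both was not tested.

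Of 16 genes listed as regulators of S-phase entry, all tested, 0 passed in edgeR at 25 and at 50 µmol/L. At 100 µmol/L 1 rose, E2f2, and 1 fell, stg, which acts at entry into mitosis. These counts stand beside the same shares of all genes. At an unadjusted p under 0.05 in edgeR E2f1, the activating E2F factor of flies, was lower at each concentration. Of all genes, 15.6, 26.2 and 21.8% had such a p in either direction. The log2 fold changes of E2f1 were -0.80, -1.17 and -1.09, with edgeR adjusted p of 0.281, 0.0598 and 0.0864, none past the threshold. Other genes of the list had smaller edgeR adjusted p at 25 and 50 µmol/L, down to 0.170 and 0.0553. The lowest log2 fold changes of the list there were -0.93 and -1.23. The part of E2f1 in the levels of the replication genes was not tested. The list's median log2 fold changes were -0.07, -0.15 and -0.04. E2f1 was at 47.7, 32.7 and 30.0 CPM in DMSO and 26.7, 8.53 and 12.6 CPM at 50 µmol/L. All 50 µmol/L libraries were below all DMSO libraries, against 13% of all genes that were lower in this way. E2f1 has 6451 exonic bases, and its exons overlap an antisense RNA gene. Its values with the length offset and with a library left out are not reported here.

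E2f2, the repressive E2F factor, was at 52.2, 50.5 and 49.5 CPM in DMSO and 70.4, 69.4 and 71.3 CPM at 100 µmol/L. Replicates were tight and the groups did not overlap. It rose by 0.47 ± 0.10 (SE) on the log2 scale with an edgeR adjusted p of 0.0150, and also passed with the length offset, at 0.0136. Leaving out DMSO replicate 3 gave 0.0599, and 100 µmol/L replicate 2 or 3 gave 0.0616 and 0.0775. Its exons overlap those of Mpp6 on the opposite strand.

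Stg, the Cdc25 phosphatase that drives entry into mitosis, was at 138, 97.7 and 72.7 CPM in DMSO and 37.5, 42.5 and 20.5 CPM at 100 µmol/L. All 100 µmol/L libraries were below all DMSO libraries. It fell by 1.64 ± 0.38 (SE) on the log2 scale with an edgeR adjusted p of 0.0194, and 0.0200 with the length offset. Leaving out DMSO replicate 1 gave 0.0871, and 100 µmol/L replicate 2 or 3 gave 0.0523 and 0.113. The calls of E2f2, stg, Caf1-180 and chif were all lost with a block for runs of the numbers that lead the sample titles, whose meaning is not stated. That block left 0 of all 7328 genes called at 50 and 1 at 100 µmol/L. A run holds neighbouring numbers, such as 6, 18 and 30. The 25 µmol/L libraries are in runs 2, 2 and 3 and the 100 µmol/L libraries in runs 4, 1 and 4. Block and concentration are thus partly mixed. At 100 µmol/L the median SE over all genes was 0.23 with that block and 0.16 without it. Whether the calls were lost to lower precision was not tested. Over 15 alternatives the log2 fold change ran from 0.37 to 0.49 for E2f2, from -1.85 to -1.25 for stg and from -1.74 to -0.77 for chif. For Caf1-180 it ran from -1.09 to -0.69 at 50 and from -0.96 to -0.49 at 100 µmol/L.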

How the data were processed

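Whole-number counts per gene for 12 libraries, not normalised, were deposited by the authors. Per the submitters' processing notes the tools were FastQC 0.11.8, MultiQC 0.9, HISAT2 2.0.5, SAMtools 1.7 and HTSeq 0.9.1, with build dm6. Per the labels the libraries were stranded (dUTP) and poly(A)-selected. Whether counting used the strand and how zebrafish reads were set aside is not stated. Exons of 13 of the 34 members overlap a gene on the other strand.

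Reads with no feature (0.783 to 1.04%) and ambiguous reads (1.87 to 2.71%) were left out. Of 17494 identifiers, 17358 matched the BDGP6.54 annotation, used for names, positions and exonic lengths. No genome sequence was used, so the planned description of promoter motifs was not made.

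Genes were kept by filterByExpr (minimum count 10, minimum total 15), normalised by TMM and fitted by quasi-likelihood (edgeR 4.0.16, R 4.3.3) in 1 fit of 12 libraries with group as the term. The trend had a fit of its own. Tests were two-sided and adjusted by Benjamini-Hochberg over 7328 genes, with a threshold of 0.05. DESeq2 1.42.0 was an alternative. Each SE was derived from the fold change and its F statistic. The fitting was tested on simulated data, where the trend test seldom called changes that were equal at all concentrations. For changes of that kind, 0 calls for the trend say little. Changes graded over concentration were not simulated.

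In each role the member with the smallest joint p was named, because none passed the threshold. Members and lists were chosen with earlier results of these data known. One call among the other replication factors is not reported here.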

Additional observations from a re-analysis of the deposited data

How the results depend on the processing

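The count of members past the threshold was 0 in edgeR for all 8 tests, and 0 under DESeq2, DESeq2 size factors, the length offset, both blocks and both combinations of length offset and block. The combinations were chosen after seeing the data. Exceptions were 1 (PolE1) at 25 µmol/L and 1 in the joint test with no filter, and 1 at 100 µmol/L from only the 2 groups. These fits called 4.05, 9.48 and 7.24% of all genes. Leaving out 1 library gave 0 to 1 at 25, 0 to 2 at 50 and 0 to 2 in the joint test. The fits at the upper end of these ranges called 2.69, 16.6 and 7.62% of all genes. Over the 15 alternatives of each comparison with DMSO the median log2 fold change was -0.12 to -0.02 at 25, 0.09 to 0.17 at 50 and 0.01 to 0.07 at 100 µmol/L. Calls over all genes ranged from 6 to 464 at 25, 0 to 1233 at 50 and 1 to 777 at 100 µmol/L, against 122, 502 and 379, and from 1 to 207 (22), 0 to 70 (15) and 1 to 35 (3) between 50 and 25, 100 and 25, and 100 and 50 µmol/L. Values of single members between 100 and the other concentrations, and slopes other than that of RpA-70, are not reported and were not recomputed. Low counts limit Psf3, Prim1 and Psf2.

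Replicate numbers did not pair the libraries: deviations from group means correlated at -0.38 to 0.44 over 18 same-numbered pairs and -0.38 to 0.36 over 36 others. With the replicate block 0 members passed in all 8 tests.

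Some values that were not past the threshold changed sign, and the cause was not tested. With the length offset alone, with the replicate block added and with the title number block added, geminin at 50 µmol/L was -0.14, -0.14 and -0.15, Psf2 at 25 µmol/L -0.12, -0.13 and -0.14, PolE1 at 50 µmol/L 0.25, 0.24 and 0.30, and RfC4 -0.14, -0.14 and -0.17 at 25 and -0.036, -0.036 and -0.029 at 100 µmol/L. With the first and second of these, Orc4 at 100 µmol/L was -0.030 and -0.031, and geminin at 25 µmol/L -0.042 and -0.039. With the third, PolE1 at 100 µmol/L was 0.037 and RpA-70 at 25 µmol/L -0.018. With DESeq2, DESeq2 size factors, no filter and the title number block, RfC4 at 25 µmol/L was -0.0084, -0.0085, -0.0071 and -0.0028, and RpA-70 -0.011, -0.011, -0.0098 and -0.017. Geminin between 50 and 25 µmol/L was 0.00043 with DESeq2 and 0.00013 with its size factors. Leaving out 1 library gave geminin -0.073 to 0.051 at 100 µmol/L and -0.062 to 0.023 between 50 and 25 µmol/L, Mcm6 -0.049 to 0.057 at 50, Psf2 -0.080 to 0.20 at 25, PolA2 -0.12 to 0.025 at 25, RfC4 -0.045 to 0.053 at 25 and RpA-70 -0.11 to 0.084 at 25 µmol/L.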
